A study of Mus musculus with 3 samples.

Results

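The genes described here are 8 of the unfolded protein response and of the integrated stress response that runs through ATF4: Atf4, Ddit3, Trib3, Chac1, Asns, Xbp1, Hspa5 and Herpud1. They were taken by their symbols, and make up 8 of the 32285 genes in each matrix. The data are single-cell RNA sequencing of live CD45+ leukocytes sorted from 4T1-luc mammary tumors after cold protease digestion, with 1 library for each of 3 conditions. In every condition 200000 tumor cells were implanted into fat pad number 4 of female BALB/c mice aged 6 to 8 weeks, and tumors of 3 mice were pooled at day 14. The vehicle library came from mice gavaged with the vehicle (DPBS), and the p38i library from mice given 30 mg/kg of the p38 inhibitor LY2228820 (ralimetinib), both daily from day 4 for 10 days. The p38KO library came from mice that carried tumor cells of a single clone, p38a-KO-H9, in which p38α was deleted in the tumor cells only, so that the leukocytes measured here still had the gene, and its treatment label is NA. Where 3 values are given in a row, their order is vehicle, p38i, p38KO. Mapk14, which encodes p38α, was at 33.7, 42.1 and 39.1 counts per 1000000 UMIs (CPM) in the cells kept here, so the knockout cannot be checked in these host cells. A UMI (unique molecular identifier) marks 1 captured transcript. With a pool of 3 mice and 1 library per condition there is no replicate, so no test between conditions was made, every interval given here covers counting error only, and condition and batch cannot be told apart.

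Proteins that misfold in the endoplasmic reticulum (ER) are sensed by IRE1, PERK and ATF6. IRE1 splices the Xbp1 transcript, and with ATF6 the resulting factor drives chaperones such as Hspa5, which encodes BiP, and components of ER-associated degradation (ERAD) such as Herpud1. PERK, and kinases that sense amino acid shortage, heme shortage or viral RNA, phosphorylate eIF2α, which lowers translation in general while translation of the Atf4 transcript goes up. ATF4 then drives Ddit3 (CHOP), Trib3, Chac1 and Asns. Transcripts counted at the 3′ end do not tell spliced from unspliced Xbp1 and do not measure ATF4 protein.

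The sites through which these factors are known to act were looked for in the 250 bases before the RefSeq start of each gene, on GRCm38.p6. All 8 genes had a promoter sequence in the RefSeq table. The letters searched on both strands were TGATGNAA, the core of the C/EBP-ATF response element (CARE) bound by ATF4, then CCAAT followed after 9 bases by CCACG, the ER stress response element (ERSE) of ATF6 and XBP1, and ATTGG followed after 1 base by CCACG, its second form (ERSE-II). The sequences printed here hold every match among the 8 genes, written 5′ to 3′ along the gene with the match in capitals, and are shown because they tell which members carry the letters of either arm close to their start. Chac1 (chr2:119351019-119351086, plus strand) and Asns (chr6:7693214-7693243, minus strand) hold a CARE core, Hspa5 (chr2:34772020-34772048, plus strand) holds an ERSE, and Herpud1 (chr8:94386287-94386417, plus strand) holds a CARE core followed by an ERSE-II, which do not overlap.
Chac1: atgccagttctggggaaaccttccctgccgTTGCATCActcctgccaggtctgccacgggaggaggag
Asns: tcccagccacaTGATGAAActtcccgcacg
Hspa5: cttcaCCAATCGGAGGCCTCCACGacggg
Herpud1: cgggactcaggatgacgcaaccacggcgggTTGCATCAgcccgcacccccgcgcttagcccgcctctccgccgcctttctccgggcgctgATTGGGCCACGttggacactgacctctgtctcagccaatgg

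The CARE core lay on the minus strand relative to the gene in Chac1 (bases -193 to -186 from the start) and Herpud1 (-112 to -105), and on the plus strand in Asns (-23 to -16). The ERSE of Hspa5 lay at -65 to -47 and the ERSE-II of Herpud1 at -52 to -42. Of 32851 RefSeq promoter windows of the same length, 3.45% held a CARE core, 0.113% an ERSE and 0.0304% an ERSE-II. The windows of Asns and Hspa5 were kept to 30 and 29 bases because a longer GENCODE transcript of each gene begins upstream of them. The letters searched were not in the windows of Atf4, Ddit3, Trib3 and Xbp1.

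By GENCODE vM21 on GRCm38, Atf4 (ENSMUSG00000042406) lies at chr15:80255184-80257541, Ddit3 (ENSMUSG00000025408) at chr10:127290774-127296288, Xbp1 (ENSMUSG00000020484) at chr11:5520659-5525893, Hspa5 (ENSMUSG00000026864) at chr2:34771970-34777547 and Herpud1 (ENSMUSG00000031770) at chr8:94386438-94395377, all on the plus strand. Chac1 (ENSMUSG00000027313) lies at chr2:119351229-119354381 on the plus strand, and Trib3 (ENSMUSG00000032715, chr2:152337422-152344032) and Asns (ENSMUSG00000029752, chr6:7675169-7693254) on the minus strand. A second Ddit3 entry, ENSMUSG00000116429, overlaps the first and had 0 counts, so all Ddit3 values are from the first. Over all barcodes the genes had 37495 UMIs for Hspa5, 16385 for Xbp1, 10028 for Atf4, 9130 for Ddit3, 3429 for Herpud1, 531 for Asns, 178 for Trib3 and 120 for Chac1.

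Cells were kept from 1500 UMIs and 300 genes upwards and up to a mitochondrial share of 20%, which left 3820, 4793 and 3859 cells, with 4 or 5 barcodes shared between any pair of libraries. They were gated on raw counts of a few marker genes into 7 types, which took 77.9%, 77.3% and 76.3% of kept cells. There were 1337, 1577 and 1194 Cxcr2+ and 486, 547 and 340 Cxcr2- neutrophils (both Csf3r+), 368, 651 and 300 monocytes, 141, 162 and 447 macrophages, 512, 618 and 498 T cells, 111, 112 and 128 NK cells, and 20, 39 and 39 dendritic cells (DC). All 5 markers of their own type that were not used for gating were at least 2 times the level of all kept cells in Cxcr2+ neutrophils, macrophages, T and NK cells, 4 of 5 were in DC and 3 of 5 in monocytes. Only 1 of 5 was in Cxcr2- neutrophils, whose summed neutrophil markers were at 117249, 128063 and 86889 CPM against 203282, 224407 and 156565 in Cxcr2+ cells, and whose summed monocyte markers were at 1564, 2371 and 1090 CPM against 580.1, 695 and 511. The gate is therefore called by its rule, Csf3r+ cells without a Cxcr2 UMI. The summed UMIs of a gate ran from 310969 (DC, vehicle) to 7132242 (macrophages, p38KO), and its median cell from 1957.5 to 17362 UMIs. The median share of mitochondrial counts per cell was 0.671%, 0.968% and 2.10%.

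Ddit3, which encodes the transcription factor CHOP that acts late in ER stress and can lead to cell death, was highest in neutrophils. In Csf3r+ cells without Cxcr2 it was at 485, 323 and 527 CPM, and in Cxcr2+ neutrophils at 234, 199 and 265 CPM. In the other gates it was at 49.3, 39.7 and 41.2 CPM in monocytes, 40.1, 31.7 and 38.2 in T cells, 47.3, 27.2 and 32.8 in NK cells, 26.8, 18.3 and 24.4 in macrophages, and 6.43, 8.09 and 22.7 in DC. The neutrophil gates therefore stood above the other 5 gates in each library, with no overlap of the 95% Poisson intervals, and Cxcr2- cells stood above Cxcr2+ cells in each library. Among monocytes, T and NK cells the intervals overlapped in every library, and the DC values rest on 2, 4 and 13 counts.

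RNA released from lysed neutrophils can enter other droplets. The 5 neutrophil markers, summed, reached 0.0892% to 1.86% of their Cxcr2+ neutrophil level in the gates outside neutrophils, while Ddit3 reached 2.75% to 21.1% of its own. Cxcr2+ neutrophils, the reference here, had more marker RNA and less Ddit3 than Cxcr2- cells. The part of released RNA in the Ddit3 values was not tested. When each cell was thinned to 1500 UMIs, so that deep and shallow cells were alike, 41.6% of Cxcr2- cells had a Ddit3 UMI in the vehicle library (95% Clopper-Pearson interval 37.1 to 46.1), 37.1% in p38i (33.1 to 41.3) and 47.6% in p38KO (42.2 to 53.1). In Cxcr2+ neutrophils the shares were 27.4%, 24.5% and 29.1%, and in the other gates between 0 and 9.91%. At full depth the shares were 56.8%, 46.6% and 54.4% in Cxcr2- and 41.0%, 34.8% and 39.2% in Cxcr2+ cells.

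**Figure D1:**
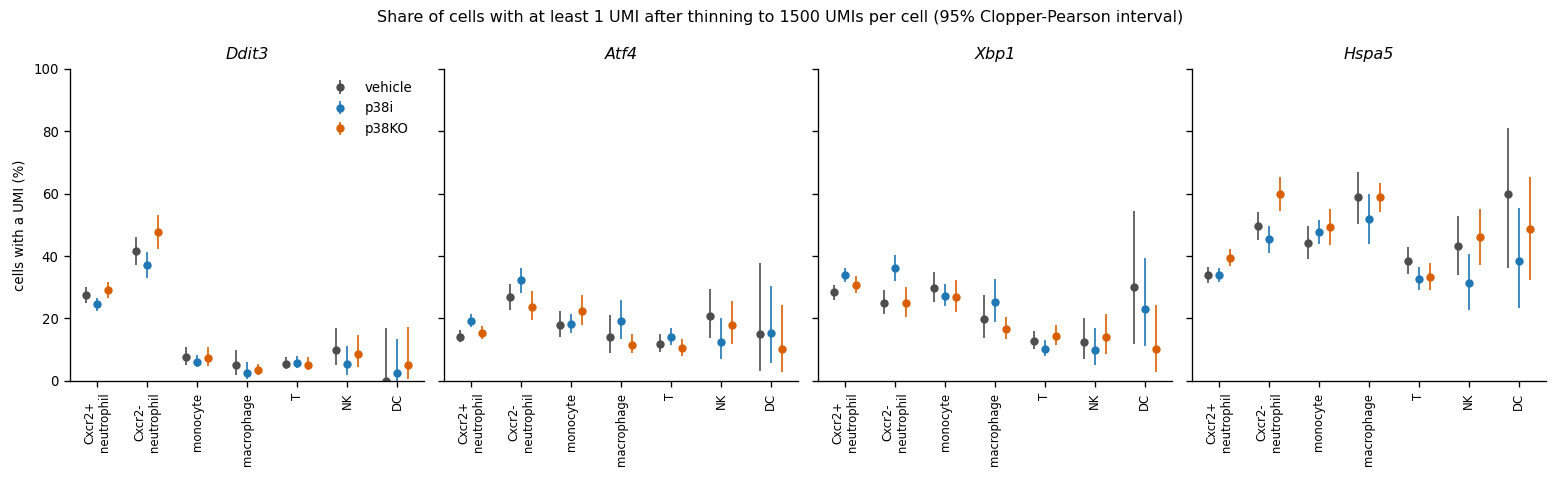
Share of cells (%) with at least 1 UMI of Ddit3, Atf4, Xbp1 and Hspa5 in each gate and library after thinning to 1500 UMIs per cell, with 95% Clopper-Pearson intervals. Ddit3 was seen in 24.5% to 47.6% of cells of the neutrophil gates and in at most 9.91% of cells of any other gate, while Hspa5 was seen in 31.2% to 60.0% of cells of every gate.

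Atf4, the factor that the eIF2α kinases bring into play, had a flatter order. It was highest in Cxcr2- cells, at 255, 285 and 211 CPM, and lay at 122, 153 and 122 CPM in Cxcr2+ neutrophils. Monocytes had 131, 139 and 142 CPM, NK cells 140.5, 105 and 114, macrophages 104, 102 and 98.3, T cells 87.2, 95.9 and 84.0, and DC 86.8, 105 and 96.0. Outside the Cxcr2- gate no gate stood apart from all others, since the intervals of neighbours in this order overlapped. After thinning, an Atf4 UMI was seen in 26.7%, 32.2% and 23.8% of Cxcr2- cells and in 14.2%, 19.3% and 15.5% of Cxcr2+ neutrophils.

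Xbp1, the substrate of IRE1 and a factor that secretory cells need, was highest in the neutrophil and monocyte gates. Cxcr2+ neutrophils had 304, 394 and 301 CPM, Cxcr2- cells 279, 384 and 262, and monocytes 245, 278 and 221. Macrophages were at 127, 163 and 135 CPM, DC at 106, 146 and 90.8, T cells at 94.1, 88.1 and 104, and NK cells at 96.1, 84.6 and 85.6. In each library the 3 gates of neutrophils and monocytes stood above the other 4, macrophages lay above T cells in each library and above NK cells in p38i and p38KO, and the intervals of T and NK cells overlapped in each. DC overlapped with macrophages in vehicle and p38i and lay under them in p38KO. In the vehicle library the intervals of both neutrophil gates overlapped, at 288 to 322 CPM in Cxcr2+ and 250 to 309 in Cxcr2- cells.

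Hspa5, the ER chaperone BiP and the most abundant member, was present in every gate. Macrophages had the most, at 814, 698 and 744 CPM. Cxcr2- cells had 618, 510.1 and 698 CPM, monocytes 504, 523 and 487, DC 527, 465 and 422, and NK cells 461, 430.2 and 489. The lowest values were in T cells, at 329.9, 319.5 and 348 CPM, and in Cxcr2+ neutrophils, at 299, 314 and 399 CPM. The highest count in a single cell was 93, in a macrophage of the p38KO library, and the macrophage and Cxcr2- intervals overlapped in the p38KO library only.

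Herpud1, an ER membrane protein of the ERAD complex, had another order and was highest in DC, at 129, 150 and 159 CPM. NK cells had 59.2, 54.5 and 52.8 CPM, macrophages 48.6, 54.8 and 60.4, T cells 41.1, 46.4 and 50.6, Cxcr2+ neutrophils 31.2, 30.1 and 39.2, Cxcr2- cells 28.0, 21.6 and 56.0, and monocytes 21.7, 36.2 and 35.8. The DC interval lay above that of every other gate in each library, although DC were few (20, 39 and 39 cells). Among the remaining gates, macrophages lay above monocytes in each library.

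The 3 targets of ATF4 that act in metabolism or feedback were scarce. Asns, which makes asparagine, was at 11.7, 15.3 and 12 CPM in Cxcr2+ neutrophils and at 8.56, 9.34 and 10.4 CPM in Cxcr2- cells. In monocytes it had 5.42, 4.69 and 7.00 CPM, in macrophages 5.01, 7.02 and 2.94, in T cells 5.96, 5.46 and 4.40, and in NK cells 7.39, 1.43 and 3.17. In DC it had no count in the vehicle and p38i libraries and 9 counts (15.7 CPM) in p38KO, 7 of them in 1 cell. Trib3, a pseudokinase that restrains ATF4 and CHOP, had at most 14 counts in any gate and library, between 5.03 and 5.45 CPM in Cxcr2- cells and between 1.22 and 3.24 CPM in Cxcr2+ neutrophils. No Trib3 count fell in NK cells, where 3 counts would be 4.44, 4.30 and 3.17 CPM.

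Chac1, an enzyme that degrades glutathione, was seen mainly in the neutrophil gates. Cxcr2- cells had 17, 7 and 8 counts (13.2, 5.03 and 10.4 CPM) and Cxcr2+ neutrophils 2, 6 and 19 counts (0.488, 1.27 and 6.16 CPM). The other 5 gates held at most 2 counts each, and NK cells and DC held none in any library.

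**Figure D2:**
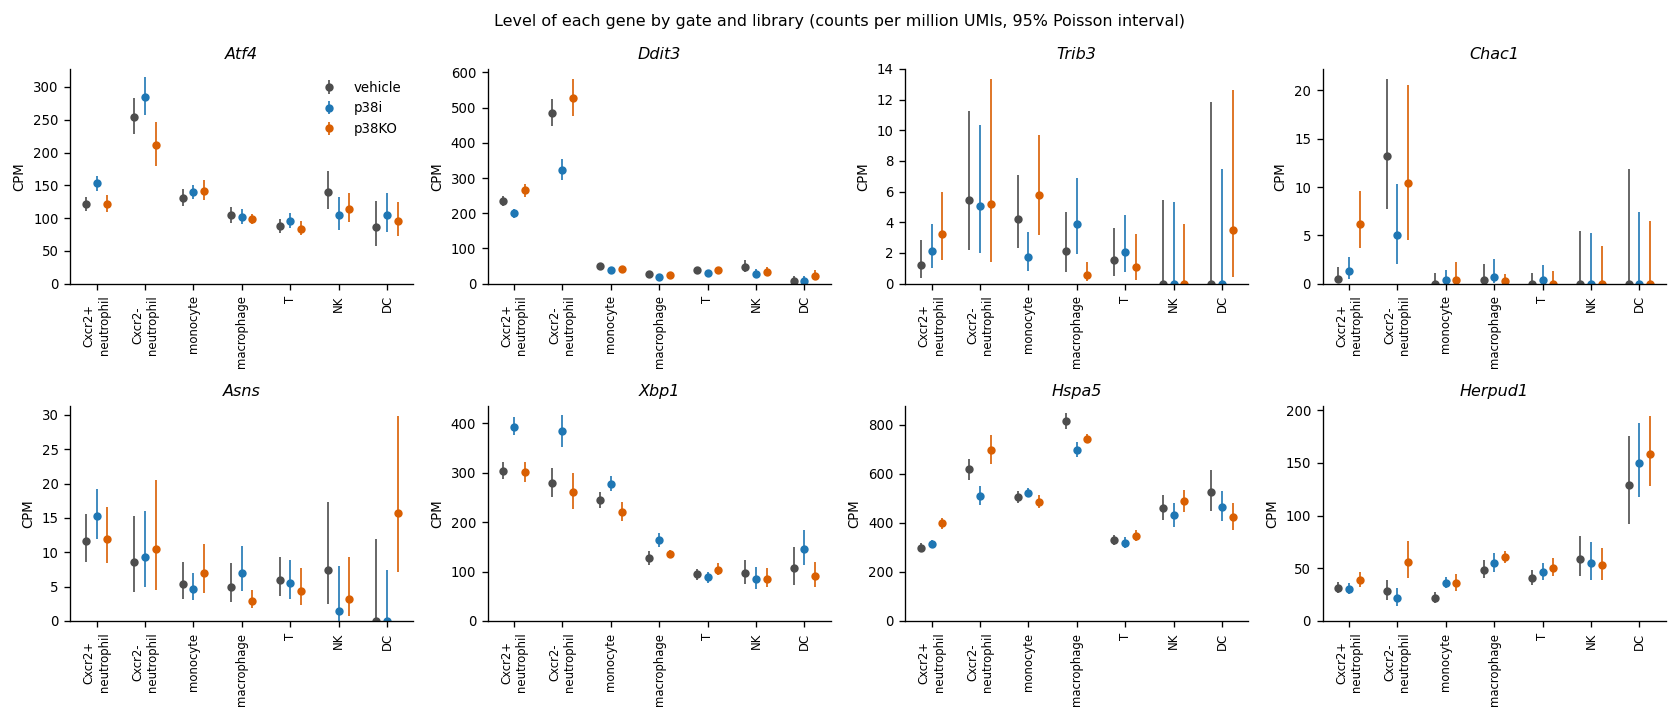
Level of the 8 genes in CPM (vertical axes, each from 0) in 7 gates and 3 libraries (colours), with 95% Poisson intervals of the counts. Ddit3 stood highest in both neutrophil gates, up to 527 CPM, Hspa5 in macrophages, up to 814 CPM, Herpud1 in DC, up to 159 CPM, and Chac1 was seen mainly in neutrophils.

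Cxcr2 is the chemokine receptor of mature neutrophils. Within each library, Atf4, Ddit3 and Hspa5 were all higher in Csf3r+ cells without Cxcr2 than in Cxcr2+ neutrophils, while Xbp1 stayed within 0.20 of no difference on the log2 scale. Both gates of a library share their mice, preparation and sequencing run, so that this comparison is not one between libraries. A gene is called higher or lower where the log2 ratio of CPM is at least 0.5 either way, its exact conditional binomial 95% interval leaves out 0 and both sums hold at least 20 counts together. By this rule 9 of 24 pairs of member and library were called higher and 0 lower, 10 were not called and 5 had too few counts. Over all genes with enough counts, 22.3%, 26.2% and 18.6% were called higher and 12.9%, 7.31% and 11.1% lower, with median log2 ratios of 0.13, 0.26 and 0.11. All 9 calls were of Atf4, Ddit3 and Hspa5, each in 3 of 3 libraries, and 11.3% of the 6553 genes with enough counts in 3 libraries were called higher in 3 of 3.

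For Ddit3 the 485 against 234 CPM of the vehicle library is a log2 ratio of 1.05 (0.90 to 1.20), or 2.07 times. The p38i library gave 0.69 (0.53 to 0.86), and the p38KO library 0.99 (0.82 to 1.17). For Atf4 the log2 ratios were 1.06 (0.86 to 1.27), 0.90 (0.72 to 1.08) and 0.80 (0.52 to 1.07). For Hspa5 they were 1.05 (0.92 to 1.18), 0.70 (0.57 to 0.83) and 0.81 (0.66 to 0.96). In the p38i library the calls of Ddit3 and Hspa5 depended on the scaling, since median-ratio scaling gave log2 ratios of 0.44 and 0.44. All other calls of these 3 genes held with every alternative but a size limit of 1.

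Xbp1 had log2 ratios of -0.13 (-0.30 to 0.04), -0.04 (-0.18 to 0.10) and -0.20 (-0.43 to 0.02). Herpud1 had -0.16, -0.48 and 0.51, with intervals that all included 0, and Asns -0.45, -0.71 and -0.20, likewise. Chac1 had 17 counts in Cxcr2- against 2 in Cxcr2+ cells of the vehicle library, 1 short of the 20 needed for a call, with a ratio of 4.76 on the log2 scale (2.69 to 7.92). In p38i the ratio was 1.98 (0.18 to 3.83), from 7 against 6 counts, and in p38KO 0.76 (-0.64 to 2.02).

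**Figure D3:**
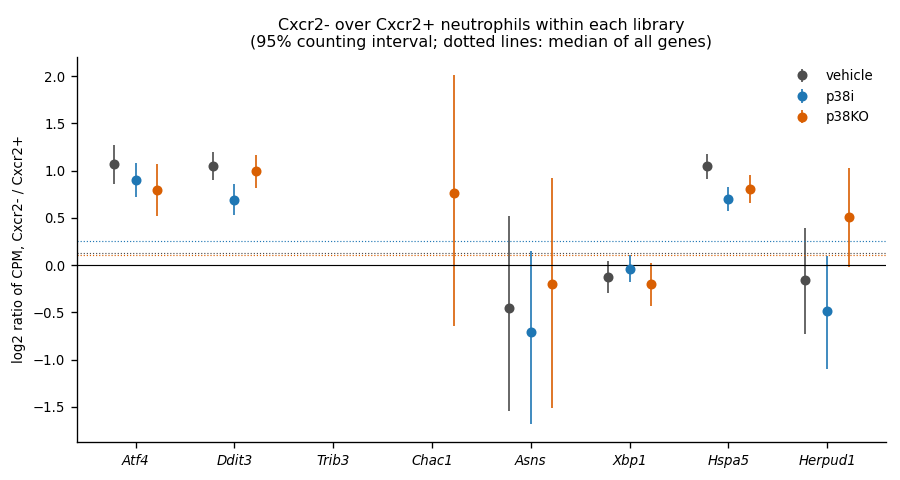
Log2 ratio of CPM of Cxcr2- over Cxcr2+ neutrophils within each library (colours), with 95% counting intervals, for members with at least 20 counts, and with the median of all genes as dotted lines. Atf4, Ddit3 and Hspa5 lay between 0.69 and 1.06 in all 3 libraries, while Xbp1 lay between -0.20 and -0.04.

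Depth was lower in Cxcr2- cells, and dissociation genes were called in both directions. The median Cxcr2- cell held 2222.5, 1988 and 1957.5 UMIs and the median Cxcr2+ cell 2568, 2351 and 2205.5. Of the 14 genes of a list of immediate-early and heat-shock genes that respond to tissue dissociation, 6, 6 and 5 of 13 with enough counts were called higher in Cxcr2- cells and 3, 3 and 3 lower. The median log2 ratios of this list were 0.30, 0.28 and 0.12, beside 0.13, 0.26 and 0.11 for all genes. Of all genes, 22.3%, 26.2% and 18.6% were called higher and 12.9%, 7.31% and 11.1% lower. The part of depth and of the dissociation genes in the contrast was not tested, nor was that of the monocyte markers given above.

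When neutrophils were thinned to 1500 UMIs and grouped by the Cxcr2 UMIs left, Ddit3 was lower in each group with more Cxcr2. In the vehicle library it was at 477 CPM in 640 cells with none, 337 in 403 cells with 1, 264 in 283 cells with 2 and 168 in 497 cells with 3 or more. The p38i library gave 342, 244, 223 and 183 CPM, and the p38KO library 551, 333, 301 and 213 CPM. The step from 0 to 1 Cxcr2 UMI was larger than the intervals in each library, while the 1 and 2 groups overlapped.

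Atf4 went from 232, 275 and 212 CPM in cells with no Cxcr2 UMI to 87.2, 141 and 98.7 CPM in cells with 3 or more. Hspa5 went from 568, 434 and 700.2 CPM to 303, 321 and 368 CPM. Xbp1 was at 281, 388 and 244 CPM in cells with none and at 300.5, 402 and 321 CPM in cells with 3 or more, with no fall in any library.

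**Figure D4:**
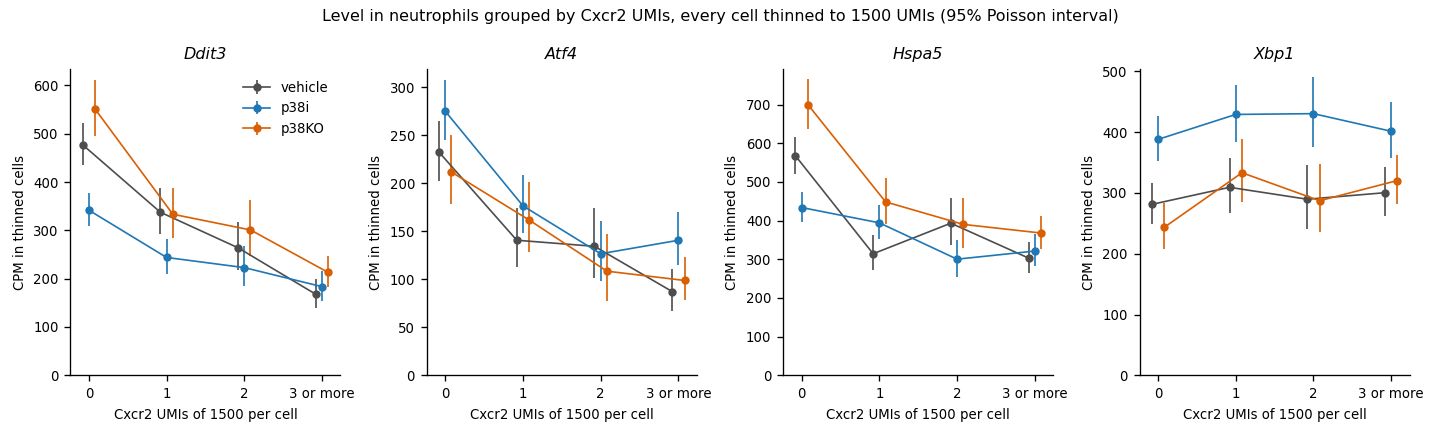
Level in CPM (vertical axes, from 0) of Ddit3, Atf4, Hspa5 and Xbp1 in neutrophils grouped by the Cxcr2 UMIs left after thinning each cell to 1500 UMIs (horizontal axes), in 3 libraries, with 95% Poisson intervals. Ddit3 went from 342 to 551 CPM without Cxcr2 down to 168 to 213 CPM at 3 or more UMIs, and Xbp1 showed no such fall.

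Thinned cells with and without a Ddit3 UMI were set side by side within a gate. In vehicle Cxcr2+ neutrophils 548 cells had a Ddit3 UMI at full depth and 367 after thinning. The cells without one thus include cells whose Ddit3 was missed, which makes any difference smaller. Among thinned Cxcr2+ neutrophils, Atf4 was seen in 19.3% of the 367 cells with Ddit3 and 12.3% of the 970 without it in the vehicle library (intervals 15.4 to 23.8 and 10.3 to 14.5). The same shares were 21.8% and 18.6% in p38i and 18.7% and 14.2% in p38KO, with overlapping intervals. Hspa5 was seen in 39.0% and 32.0%, 38.6% and 32.3%, and 45.1% and 37.2%, and Xbp1 in 25.9% and 29.3%, 33.7% and 33.9%, and 30.2% and 31.1%. Herpud1 was seen in 2.45% and 5.77%, 4.15% and 4.62%, and 6.61% and 6.26%. In Cxcr2- cells the Hspa5 shares were 56.9% and 44.4%, 48.8% and 43.3%, and 59.3% and 60.7%.

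The wider lists of the same pathways were set beside the members for this contrast. The list of 56 chaperone, folding and ERAD genes of the XBP1 and ATF6 arms also holds sensors such as Ern1 and Atf6, so not all are targets. Of these, 23 of 51, 24 of 52 and 17 of 50 with enough counts were called higher in Cxcr2- cells and 2, 0 and 1 lower. The list medians were 0.60, 0.51 and 0.37 on the log2 scale. Of 24 genes of the eIF2α kinases and the feedback on them, 6 of 16, 6 of 17 and 5 of 16 were called higher and 1, 0 and 0 lower, with medians of 0.42, 0.66 and 0.40. Of 30 amino acid transport, synthesis and tRNA synthetase genes driven by ATF4, 3 of 11, 5 of 15 and 3 of 12 were called higher and none lower. These shares stand beside the 22.3%, 26.2% and 18.6% of all genes called higher.

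In 3 of 3 libraries, 13 of 49 chaperone and ERAD genes, 4 of 16 kinase and feedback genes and 3 of 11 amino acid genes were called higher, beside 5 of 13 dissociation genes and 11.3% of all genes. Singled out after their values were seen, the ER-resident factors Manf and Sdf2l1 had log2 ratios of 1.64, 1.39 and 0.97 and of 2.35, 2.13 and 1.63. The Sdf2l1 ratios rest on 16 against 10, 22 against 17 and 10 against 13 counts. Edem2, of the same list, was called lower in vehicle and p38KO, at -0.84 and -0.70. Atf3, an early stress factor that is also on the dissociation list, went from 408, 322 and 482 CPM in Cxcr2+ to 888, 565 and 918 CPM in Cxcr2- cells. Ddit4, an inhibitor of mTOR signalling, went from 92.4, 69.4 and 91.1 CPM to 188, 125 and 189 CPM.

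The comparison of p38i with vehicle asks what systemic p38 inhibition changed in leukocytes of the tumor microenvironment. Ddit3 was called lower in 2 gates, and Herpud1 was called higher in monocytes. Xbp1 had ratios above 0 in myeloid cells that were not called, and most members were near their vehicle level. Of 56 pairs of member and gate 1 was called higher and 3 lower, 37 were not called and 15 had too few counts. Over all genes tested, 6.84% were called higher and 2.9% lower in Cxcr2+ neutrophils, 11.9% and 4.35% in Cxcr2- cells, 4.74% and 2.63% in monocytes, 2.79% and 3.88% in macrophages, 4.88% and 2.29% in T cells, 3.12% and 5.25% in NK cells, and 8.29% and 4.25% in DC.

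Ddit3 in Cxcr2- cells, at 323 CPM in p38i against 485 in vehicle, was called lower with a log2 ratio of -0.59 (-0.77 to -0.41). In macrophages it was called lower at -0.55 (-1.09 to -0.03), from 52 against 75 counts. The ratio was -0.23 (-0.36 to -0.10) in Cxcr2+ neutrophils, -0.31 (-0.62 to -0.01) in monocytes, -0.34 (-0.74 to 0.06) in T cells and -0.80 (-1.70 to 0.07) in NK cells. It was thus below 0 in 6 of the 6 gates with enough counts, and its interval was below 0 in 4, where 8.76%, 7.7%, 7.16% and 8.07% of all genes had such an interval (Cxcr2+, Cxcr2-, monocytes and macrophages). The 6 gates come from the same pair of libraries and are not replicates of the treatment.

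The call in Cxcr2- cells was lost without the cell filter (-0.37), with stricter gates (-0.42) and in thinned cells (-0.46). The call in macrophages was lost with stricter gates (-0.29), median-ratio scaling (-0.53) and in thinned cells (-2.11). Thinned macrophages with a Ddit3 UMI numbered 7 in vehicle and 4 in p38i. After thinning, the shares of Cxcr2- cells with a Ddit3 UMI, 37.1% and 41.6%, had overlapping intervals. The genes that respond to dissociation were lower in p38i in the same gates: 3 of 13 in Cxcr2+ neutrophils, 5 of 13 in Cxcr2- cells, 8 of 14 in monocytes, 6 of 14 in macrophages, 5 of 14 in T cells, 6 of 12 in NK cells and 11 of 14 in DC were called lower, and 0, 0, 1, 2, 2, 0 and 0 higher. Whether dissociation or the inhibitor lowered these genes cannot be told apart here. Their part in the Ddit3 values was not tested.

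Xbp1 was above vehicle in p38i with an interval above 0 in 4 of 7 gates, at log2 ratios of 0.37 in Cxcr2+ neutrophils, 0.46 in Cxcr2- cells, 0.19 in monocytes and 0.36 in macrophages, and was called in none. Of all genes, 13.4%, 17%, 10.7% and 6.44% had an interval above 0 in these gates. The median log2 ratio of all genes in them was 0.08, 0.20, 0.05 and -0.03. Xbp1 in Cxcr2- cells was called higher under other settings, with the mean of per-cell CPM (0.55) and in thinned cells (0.61). Over all alternatives this ratio ran from 0.25 to 0.61. In T and NK cells it was at -0.10 and -0.18 and in DC at 0.46, with intervals that included 0. Atf4 was at 0.33 (0.16 to 0.50) in Cxcr2+ neutrophils, with intervals that included 0 in the other 6 gates.

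Hspa5 was at -0.28 (-0.42 to -0.13) in Cxcr2- cells and at -0.22 (-0.31 to -0.13) in macrophages, and its intervals included 0 elsewhere. Chac1 in Cxcr2- cells, with 7 counts in p38i and 17 in vehicle, was called lower at -1.40 (-2.91 to -0.05), a call lost with stricter gates (-0.13) and in thinned cells (-0.17). Asns was not called in any of the 5 gates where it had enough counts.

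Herpud1 in monocytes was called higher, from 72 counts and 21.7 CPM in vehicle to 185 counts and 36.2 CPM in p38i, a log2 ratio of 0.74 (0.34 to 1.15). In p38KO monocytes it was at 35.8 CPM, 0.73 (0.26 to 1.20) above the same vehicle library. The monocyte gate held a few cells with Siglech, a marker of plasmacytoid dendritic cells, 3, 15 and 8. In these, Herpud1 was at 42.7, 240.3 and 189 CPM, from 1, 26 and 14 counts. In the cells without such transcripts or those of plasma, B or epithelial cells, Herpud1 was at 19.3, 31.4 and 28.0 CPM, from 62, 154 and 62 counts. Both calls were kept, with smaller ratios to vehicle than in the whole gate. The call in p38KO was lost with stricter gates (0.22) and in thinned cells (0.62).

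The comparison of p38KO with vehicle asks what p38α in the tumor cells does to the leukocytes around them, and it uses the same vehicle library. Vehicle mice were gavaged, the p38KO tumors came from a single clone, and the paper reports slower growth of p38KO tumors. These differences cannot be told apart from the loss of p38α. Here Herpud1 was called higher in 2 gates and Chac1 in 1, while Hspa5 had ratios above 0 in neutrophils that were not called. Ddit3 was called in no gate, with ratios above 0 in the neutrophil gates and below 0 in monocytes, macrophages, T and NK cells. Of 56 pairs 3 were called higher and 0 lower, 38 were not called and 15 had too few counts. Over all genes tested, 9.32% were called higher and 2.74% lower in Cxcr2+ neutrophils, 9.1% and 3.72% in Cxcr2- cells, 8.49% and 2.25% in monocytes, 8.16% and 3.28% in macrophages, 7.87% and 3.18% in T cells, 4.79% and 6.53% in NK cells, and 7.23% and 3.52% in DC.

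Herpud1 was called higher in Cxcr2- cells, at 56.0 CPM against 28.0 (43 against 36 counts), a log2 ratio of 1.00 (0.33 to 1.68), and in monocytes as given above. It was above vehicle in 6 of 7 gates, at 0.33 in Cxcr2+ neutrophils, 0.31 in macrophages, 0.30 in T cells and 0.30 in DC, and only in macrophages among these did the interval (0.03 to 0.60) leave out 0. The median log2 ratio of all genes was above 0 in the same 6 gates, at 0.05 to 0.11, and was -0.02 in NK cells. Over all kept cells it was at 39.3 CPM in vehicle, 44.0 in p38i and 56.4 in p38KO, sums that also follow which cells each library holds.

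The third call was Chac1 in Cxcr2+ neutrophils, with 19 counts in p38KO against 2 in vehicle, a log2 ratio of 3.66 (1.61 to 6.80). It was lost with stricter gates, in thinned cells and without the deepest 5% of cells, at log2 ratios of 3.77, 2.49 and 3.39. These settings keep fewer counts, and a pair under 20 counts cannot be called. The p38KO Cxcr2+ neutrophil and monocyte gates also held epithelial transcripts (Epcam, Krt8, Krt18 and Krt14 together at 184 and 179 CPM, against at most 5.72 in the other libraries). Without the cells that held at least 10 UMIs of these 4 genes, or any of plasma, plasmacytoid or B cells, the Chac1 call and the Herpud1 call in monocytes were both kept.

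Hspa5 was at 0.41 (0.30 to 0.53) in Cxcr2+ neutrophils, from 299 to 399 CPM, and at 0.18 (0.01 to 0.34) in Cxcr2- cells. It was at -0.13 (-0.20 to -0.06) in macrophages and -0.32 (-0.61 to -0.03) in DC, and no gate was called. Ddit3 was at 0.18 (0.04 to 0.31) in Cxcr2+ neutrophils and 0.12 (-0.06 to 0.30) in Cxcr2- cells. It was below 0 in monocytes (-0.26, -0.64 to 0.11), macrophages (-0.14), T cells (-0.07) and NK cells (-0.53, -1.29 to 0.23), with intervals that included 0. Xbp1 and Atf4 had intervals that included 0 in all 7 gates.

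**Figure D5:**
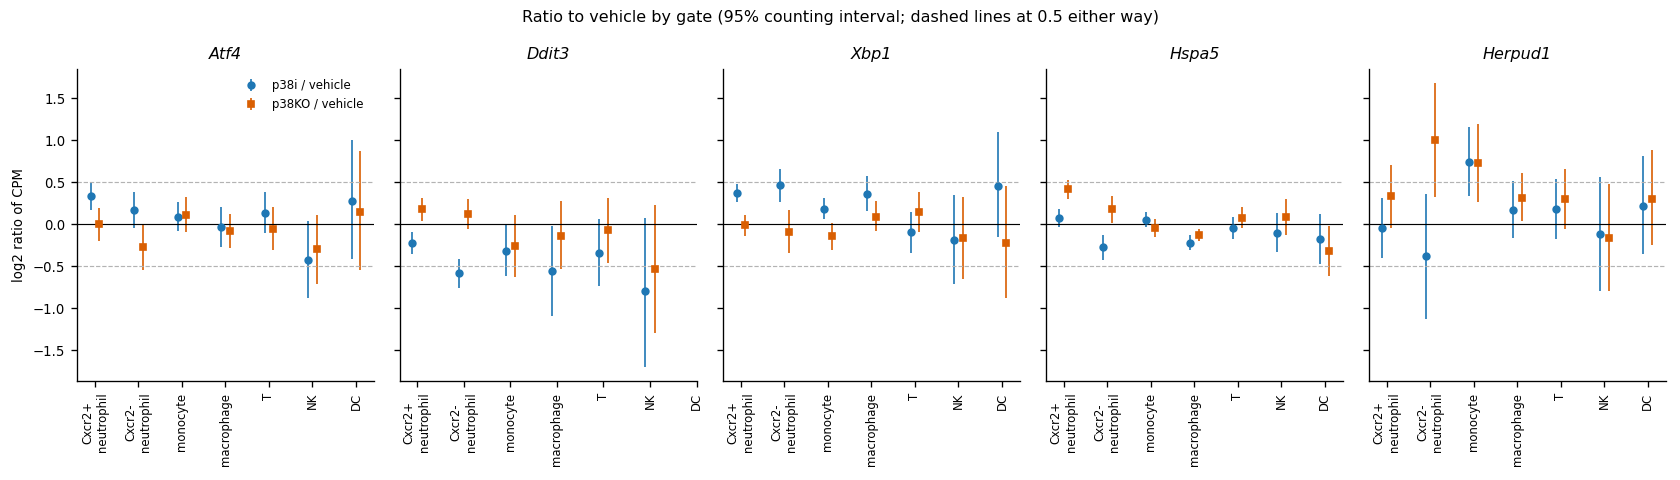
Log2 ratio of CPM to the shared vehicle library for p38i and p38KO (colours) in 7 gates, where a pair had enough counts. Shown are the 5 members with the most UMIs over all barcodes, with 95% counting intervals and dashed lines at the size needed for a call. Ddit3 lay below 0 in p38i in the 6 gates shown and reached -0.59 in Cxcr2- cells. Herpud1 lay above 0 in p38KO in 6 of 7 gates, and so did the median of all genes in those 6 gates.

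Set against each other without the vehicle library, p38KO and p38i differed for several members. These direct ratios were not recomputed under the alternative settings. Ddit3 in Cxcr2- cells, at 527 against 323 CPM, was 0.71 (0.51 to 0.91) on the log2 scale and was called, where 9.75% of all genes were called higher in p38KO. In Cxcr2+ neutrophils it was at 0.41 (0.27 to 0.55), and in the other 4 gates with enough counts the interval included 0. Herpud1 in Cxcr2- cells was called at 1.38 (0.67 to 2.10). Xbp1 had an interval below 0 in 5 of 7 gates (Cxcr2+ and Cxcr2- neutrophils, monocytes, macrophages and DC), where 12.4%, 15.4%, 8.03%, 9.58% and 7.16% of all genes had one, and was called lower in Cxcr2- cells, at -0.55 (-0.79 to -0.32), and DC, at -0.68 (-1.23 to -0.15), where 12.7% and 5.31% of all genes were called lower. The called pairs also included Chac1 in Cxcr2+ neutrophils (2.27, higher), Trib3 in monocytes (1.71, from 14 against 9 counts, higher) and Asns in macrophages (-1.25, from 21 against 20 counts, lower). The shares of all genes called in that direction were 10.8%, 7.53% and 3.22%. Of the 14 Trib3 counts in p38KO monocytes, 5 were in 1 cell. After thinning, 1 of 300 p38KO and 3 of 651 p38i monocytes had a Trib3 UMI.

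The pathway lists are given beside the shares of all genes called, as listed above for each gate. Of the chaperone, folding and ERAD genes, 0 to 5 were called higher and 0 to 4 lower in any gate in p38i, of 48 to 55 with enough counts, and 1 to 3 higher and 0 to 2 lower in p38KO, of 45 to 55. Their medians ran from -0.04 to 0.24 in p38i and from -0.05 to 0.07 in p38KO. Of the kinase and feedback genes 0 to 3 were called in either direction in any gate, of 8 to 20 with enough counts. In p38i 3 of 19 were called higher in T cells, where 4.88% of all genes were, and 2 of 8 lower in DC, where 4.25% were. In p38KO 3 of 15 were called lower in NK cells and 2 of 11 in DC, where 6.53% and 3.52% of all genes were. Of the amino acid genes 0 or 1 were called higher and 0 to 2 lower in p38i, of 11 to 25 with enough counts. In p38KO 0 to 3 were called higher and 0 to 2 lower, of 8 to 25. The 3 were of 14 in Cxcr2+ neutrophils, where 9.32% of all genes were called higher. In p38KO 2 of 25 were called lower in monocytes and 2 of 22 in NK cells, where 2.25% and 6.53% of all genes were. In p38i 2 of 21 were called lower in NK cells, where 5.25% were.

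Named by the number of gates in which they were called, the list genes lower in p38i were led by Ddit4, in 4 gates at -0.79 to -0.59, and Atf3, in 3 gates at -1.48 to -0.65. Ddit4 in monocytes was at 204 CPM in vehicle, 118 in p38i and 190.2 in p38KO, and Atf3 in Cxcr2- cells at 888, 565 and 918 CPM. Atf3, which is also a gene of the dissociation list, went the other way in T cells, at 9.72 CPM in vehicle and 19.5 in p38i. They were followed by Xpot, a tRNA exporter, lower in macrophages and NK cells, and by Ern1, the gene of IRE1, at -1.23 and the amino acid transporter Slc3a2 at -1.17, both in NK cells.

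The list genes called higher in p38i were led by Wars, a tRNA synthetase that interferon also induces, in Cxcr2- cells (1.30, from 9 to 24 counts) and macrophages (0.56). Ssr4 and Ssr1, subunits of the translocon-associated complex, were higher in both neutrophil gates, Ssr4 at 0.51 and 0.84 and Ssr1 at 0.65 in each, while Ssr1 was lower in NK cells at -0.61. Mbtps2, a protease that cuts ATF6, was higher in monocytes and T cells at 0.63 and 0.62, and the glutamine transporter Slc1a5 in Cxcr2+ neutrophils at 2.12, from 5 to 25 counts.

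In p38KO the list gene called higher in most gates was Eif2ak2, the kinase PKR that senses viral RNA and is itself induced by interferon, in 4 gates at 0.64 to 1.15. Eif2ak3, the gene of PERK, was higher in both neutrophil gates, at 0.88 in Cxcr2+ and 1.82 in Cxcr2- cells, from 8.29 to 15.2 and from 7.00 to 24.7 CPM. The cystine transporter Slc7a11 was higher in both neutrophil gates at 0.74 and 0.71 and lower in macrophages and T cells at -0.88 and -1.46, and in p38i it was lower in Cxcr2+ neutrophils at -0.63. Edem2, of ERAD, was higher in monocytes and T cells at 0.60 and 0.50, and Phgdh, the entry enzyme of serine synthesis, in monocytes at 2.58, from 8 to 35 counts. The p38KO monocyte and Cxcr2+ neutrophil gates held epithelial transcripts, as given above. The list genes were not recomputed without the cells that held them.

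Those called lower in p38KO were led by Ero1l, an ER oxidase that also responds to hypoxia, in 4 gates at -1.07 to -0.56, with 333 CPM in vehicle, 336 in p38i and 224 in p38KO monocytes. Nfil3 was lower in macrophages, T and NK cells at -1.27 to -0.90, and Atf3 in T cells and DC at -1.27 and -2.88. Nupr1, a stress-induced chromatin protein, was lower in both neutrophil gates at -1.44 and -0.73. Of the dissociation list, which holds Atf3, 2 of 13, 1 of 13, 3 of 14, 4 of 14, 3 of 14, 4 of 13 and 10 of 14 genes were called lower in p38KO (Cxcr2+, Cxcr2-, monocytes, macrophages, T, NK and DC), and 0, 0, 1, 1, 0, 0 and 0 higher. In DC its median log2 ratio was -1.14. The part of dissociation in the p38KO values was not tested.

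Over the 21 sums of gate and library, the genes whose log2(CPM + 10) was most like that of each member by Pearson's r were listed as a description, with no test, since the sums of a library share its preparation and gates differ widely in depth. For Ddit3 these were Tgoln1 (0.98), Tnfrsf26 (0.98) and Pnrc1 (0.98), and for Xbp1 Tarm1 (0.98), Mcemp1 (0.97) and Arg2 (0.97). For Atf4 they were Sar1a (0.93), Tbc1d20 (0.92) and Lrrfip2 (0.91), for Herpud1 Fchsd2 (0.92), Asb2 (0.92) and Rtl8a (0.90), and for Hspa5 Tcirg1 (0.84), Pkig (0.83) and Ehd4 (0.82). For the scarce members they were Mreg, Gpsm1 and Reps2 (0.95, 0.93 and 0.93) for Chac1, Prkaa1, Ythdf3 and Nfkbiz (0.83, 0.81 and 0.79) for Asns, and Fbxo42, Gna13 and Rbm7 (0.81, 0.80 and 0.80) for Trib3. The 68 counts of Chac1 and the 117 counts of Trib3 in these sums leave their order across the sums uncertain.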

How the data were processed

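The authors mapped and counted the reads of sorted cells with Cell Ranger (6.0.0 per the file headers), and the submitters' processing notes also name R 4.2.1 and Seurat 5. The build of the reference is given in the labels as mm10, and its annotation is not given in the sources used here. The files deposited by the authors hold whole UMI counts for each gene and barcode, not normalized. Here counts of gated cells were summed per library and expressed as CPM, with Python 3.11.15, numpy 2.4.6, scipy 1.17.1, pandas 2.3.3 and matplotlib 3.10.9. Cells with conflicting gate genes were left out of the gates and no doublet caller was run. Log2 ratios carry exact conditional binomial intervals, with 0.5 in place of a count of 0. The ratio and call were checked on simulated counts.

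The members and lists were chosen with earlier results of these data known. Named beyond the members were, for each contrast with vehicle, the 5 list genes per direction called in most gates, ties by median size, and the 3 genes most like each member among those with at least 100 counts, leaving out Rik, Gm-numbered, ribosomal protein and mitochondrial genes. Of 31 amino acid genes 30 were matched. Alternatives were another cell filter, stricter gates, other scalings, thinning and other call limits.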

Additional observations from a re-analysis of the deposited data

How the results depend on the processing

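Of 909 member values recomputed under 9 alternative settings, 854 stayed within the interval of the value reported, 55 moved out of it, and no called value changed sign. These values cover both contrasts with vehicle and that of Cxcr2- with Cxcr2+ neutrophils. The ratios of p38KO to p38i were not recomputed. Counts of pairs called higher in p38i (1 as reported) became 3 with the mean of per-cell CPM, 2 in thinned cells and 0 with a size limit of 1, and counts called lower (3) became 1 with stricter gates, 5 with per-cell CPM, 1 with the size limit, and 2 without the cell filter and with median-ratio scaling. In thinned cells the count stayed 3, but the 3 calls were lost and others appeared, Hspa5 in macrophages (-0.56) and NK cells (-0.56) and Herpud1 in NK cells (-1.26). With stricter gates the 3 calls were also lost, and the 1 call was Atf4 in NK cells (-0.64). In p38KO those called higher (3) became 1 with stricter gates, 1 in thinned cells and 1 with the size limit, and those called lower (0) became 4 with per-cell CPM and 1 in thinned cells. The 1 in thinned cells was Ddit3 in macrophages (-1.57), which per-cell CPM also called (-1.02). Leaving out the deepest 5% of cells lost the Chac1 call, and no minimum count added Asns in DC. For Cxcr2- against Cxcr2+ neutrophils those called higher (9) became 3 with the size limit, and those called lower (0) became 2 with median-ratio scaling, 3 with per-cell CPM and 1 in thinned cells. Median-ratio scaling lost Ddit3 and Hspa5 in p38i. No minimum count added Trib3 and Chac1 in vehicle and Chac1 in p38i. Chac1 was added in vehicle without the cell filter and in p38KO with per-cell CPM, and Herpud1 in p38KO with a mitochondrial limit of 10%. The cause of these moves was not tested, except where the rule of the call itself changed. Thinning, stricter gates and leaving out cells also lower the counts, and a pair under 20 counts cannot be called whatever its ratio. The size limit calls fewer pairs by construction, and no minimum count can only add pairs. With per-cell CPM a pair with enough counts was called by the size of its ratio alone, without the interval, which can add calls by construction. Leaving out cells with plasma, plasmacytoid, B or epithelial transcripts was chosen after seeing the data, and it lost no call. Too few counts (under 20 per pair) limit Trib3, Chac1 and Asns, and DC in general. No paired analysis was possible because each group has 1 library.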

Other observations

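Outside the 7 gates, 26, 21 and 7 B cells and 4, 12 and 70 mast cells or basophils (vehicle, p38i, p38KO) were gated for description. Herpud1 was at 114, 75.3 and 233 CPM in B cells, from 10, 5 and 6 counts, and at 103 CPM in the p38KO mast cells or basophils, from 31 counts. In those same p38KO cells Hspa5 was at 307 CPM, Xbp1 at 113 CPM, Atf4 at 90.1 CPM and Ddit3 at 43.4 CPM. In the monocyte gate, the 3, 15 and 8 cells with Siglech held Xbp1 at 896, 582 and 554 CPM, against 244, 270.0 and 211 CPM in cells without transcripts of other types.

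Over all kept cells, Xbp1 was at 211, 265 and 180 CPM, Ddit3 at 129, 100.2 and 95.1 CPM, Atf4 at 132, 146 and 110 CPM and Hspa5 at 487, 465 and 563 CPM. For Ddit3 the log2 ratio of p38KO to vehicle over all kept cells was -0.44, below the 0.18 and 0.12 of the neutrophil gates. Macrophages made up 11.6% of kept cells in p38KO against 3.69% in vehicle, Cxcr2+ neutrophils 30.9% against 35%, and Cxcr2- cells 8.81% against 12.7%. The part of these shares in the Ddit3 ratio was not tested.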
